A study of Arabidopsis thaliana with 36 samples.

Results

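The 10 genes described here are MCM2 (AT1G44900), MCM3 (AT5G46280), MCM4 (AT2G16440), MCM5 (AT2G07690), MCM6 (AT5G44635), MCM7 (AT4G02060), PCNA1 (AT1G07370), PCNA2 (AT2G29570), RNR1 (AT2G21790) and TSO2 (AT3G27060). They were chosen by gene code as the parts of the DNA replication machinery that unwind the template, hold the polymerase on it and supply its nucleotides. They are 10 of 33619 rows of the expression table, and all 10 had a value in each of the 36 libraries.

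The values come from mRNA sequencing of whole Arabidopsis thaliana seedlings, 4 days old, in 12 groups of 3 libraries, biological replicates by their labels. The ethylene experiment used Col-0, a wild type, grown in liquid MS medium with 0.5% glucose. Its treated seedlings received 10 µM of the ethylene precursor ACC, its controls were mock-treated, and both were taken after 2 h and after 4 h of treatment. In the glucose-TOR experiment, wild-type Col-0 and tor seedlings were grown in the same medium without glucose and then either given 15 mM glucose or left without it over 2 h. The tor line is labelled XVE-TOR RNAi, an inducible silencing construct against the kinase TOR, and its inducer and the timing of induction are not given in the sources used here. In the glucose-HXK1 experiment, the wild type Ler-0 (written Ler) and gin2, a mutant of the hexokinase and glucose sensor HXK1, were grown and treated in the same way. Levels are in RPM, reads per 1e+06 reads, and errors of levels are SD over n = 3 libraries.

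MCM2 to MCM7 form the hexameric ring that is loaded on replication origins before S phase and becomes the core of the replicative helicase. PCNA is the sliding clamp that tethers DNA polymerases to the template, and Arabidopsis has a pair of genes for it. Ribonucleotide reductase turns ribonucleotides into the deoxyribonucleotides used for synthesis, with RNR1 as its large subunit and TSO2 as a small subunit. In plants, many genes of this machinery are transcribed in dividing meristem cells and are known targets of E2F factors, and in Arabidopsis seedlings glucose acting through TOR is known to activate root meristem growth.

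The promoter sequence beside 6 of the 10 genes carried an E2F octamer, and those windows are shown because E2F factors are the known regulators of such genes. The search covered 250 bases upstream and 50 bases downstream of each gene start in the RefSeq TAIR10.1 genome, on both strands, for TTTCCCGC, TTTCGCGC, TTTGCCGC and TTTGGCGC. The expression table names no genome build and holds no coordinates, so the genes were placed by code. Each 60-base window below lies upstream of its gene, reads in the direction of the gene, 5′ to 3′, and has the octamer or its reverse complement in capitals.
MCM2, chr1:16970154-16970213, plus strand: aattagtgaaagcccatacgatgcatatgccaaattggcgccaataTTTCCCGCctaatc
MCM3, chr5:18773843-18773902, minus strand: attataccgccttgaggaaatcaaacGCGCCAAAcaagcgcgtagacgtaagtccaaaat
MCM4, chr2:7130731-7130790, minus strand: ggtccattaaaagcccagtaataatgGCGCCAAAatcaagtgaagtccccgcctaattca
MCM5, chr2:3527501-3527560, minus strand: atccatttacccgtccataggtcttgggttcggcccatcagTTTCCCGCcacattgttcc
MCM6, chr5:18010680-18010739, minus strand: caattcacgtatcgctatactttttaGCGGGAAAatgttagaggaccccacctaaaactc
The octamer began 14 bases upstream of the gene start in MCM2, 170 in MCM3, 35 in MCM4, 19 in MCM5 and 46 in MCM6.

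In RNR1 the octamer lay just past the annotated gene start, and a 30-base window of it is shown in the same way.
RNR1, chr2:9293261-9293290, plus strand: ctagaagctgGCGGGAAAatcccaaaactt
The windows of MCM7, PCNA1, PCNA2 and TSO2 held none of the octamers, which says only that these letters are not in these 300 bases. Of all 27443 protein-coding promoters of that length, 1.76% held an octamer, against 60% of the 10 genes, 33.3% of 48 other replication genes and 0 of 13 mitotic genes.

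Another pair of motifs known from plant growth genes was searched in the same windows. Site II elements (TGGGCC or TGGGCT), which TCP factors bind, were found in 7 of the 10 promoters, in 43.8% of the 48 other replication genes and in 21.7% of all promoters, and PCNA2, which has no octamer, carried a pair of them. The telo-box (AAACCCTA) was found in PCNA1 and RNR1, 2 of the 10, in 6.25% of the 48 other replication genes and in 6.22% of all promoters. MCM7 and TSO2 held none of the 3 motifs. No match of one motif shared a base with a match of another in these promoters.
PCNA2 site II pair, chr2:12651840-12651899, minus strand: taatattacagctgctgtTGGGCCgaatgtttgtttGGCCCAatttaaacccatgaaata
PCNA1 telo-box, chr1:2262893-2262952, plus strand: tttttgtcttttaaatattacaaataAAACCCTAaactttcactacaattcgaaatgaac

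Reads on listed genes, in M (1e+06) per library, ran from 16.4 to 21.5 for ethylene, from 13.3 to 21.9 for glucose-TOR and from 5.64 to 13.6 for glucose-HXK1. A single one of the 10 genes had 53 to 4638 reads in a library. The coding sequences of PCNA1 and PCNA2 were identical at 85.6% of 792 aligned bases, with a longest identical run of 41 bases, and no stretch of 50 bases of any of the 10 transcripts was shared with another gene's. TOR, the gene targeted in the tor line, had 223, 224 and 224 RPM without glucose in the libraries labelled tor and 114, 110 and 120 RPM in Col-0. The targeted gene was thus higher in the silencing line, which goes against the label, so these are called the libraries labelled tor. The labels do not say whether reads of the silencing construct were counted as TOR, so the value may include them. HXK1 was lower in gin2, at 14.1, 15.5 and 13.7 RPM without glucose against 40.4, 39.8 and 21.7 RPM in Ler.

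In mock-treated seedlings grown with glucose TSO2, a small subunit gene of ribonucleotide reductase, had the most abundant of the 10 transcripts per length. At 2 h TSO2 stood at 112 ± 12.4 RPM per kb of transcript and RNR1 at 50 ± 3.68. The clamp genes PCNA2 and PCNA1 followed at 35.0 ± 1.57 and 28.1 ± 1.69. The helicase genes were lower, from 16.5 ± 1.72 RPM per kb for MCM7 down to 8.86 ± 1.27 for MCM6. MCM5, MCM2, MCM3 and MCM4 lay between them at 14.3 ± 1.36, 13.5 ± 1.07, 13.3 ± 1.07 and 12.4 ± 1.75, neighbours that do not differ beyond their spread.

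Treatment with ACC left the 10 transcripts without a detectable change at either time. Each change below is a log2 difference of RPM + 1 from a limma fit over the 12 libraries of an experiment, given with its standard error (SE), and a gene passed the test when its Benjamini-Hochberg adjusted p over all genes was below 0.05. At 2 h 0 of the 10 passed, where 9.25% of 19442 genes did, and at 4 h 0 of 10, where 19.4% did. Those counts were also 0 with edgeR and DESeq2. By limma 0 of the 10 had an unadjusted p below 0.05 at either time. Of 19442 genes, 4129 had one at 2 h and 6510 at 4 h. At 4 h median-of-ratios scaling, which sets the median gene to no change, called 7.59% of all genes higher and 10.2% lower and again 0 of the 10.

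The plot of levels by ACC treatment shows the 12 libraries of each gene.

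**Figure D1:**
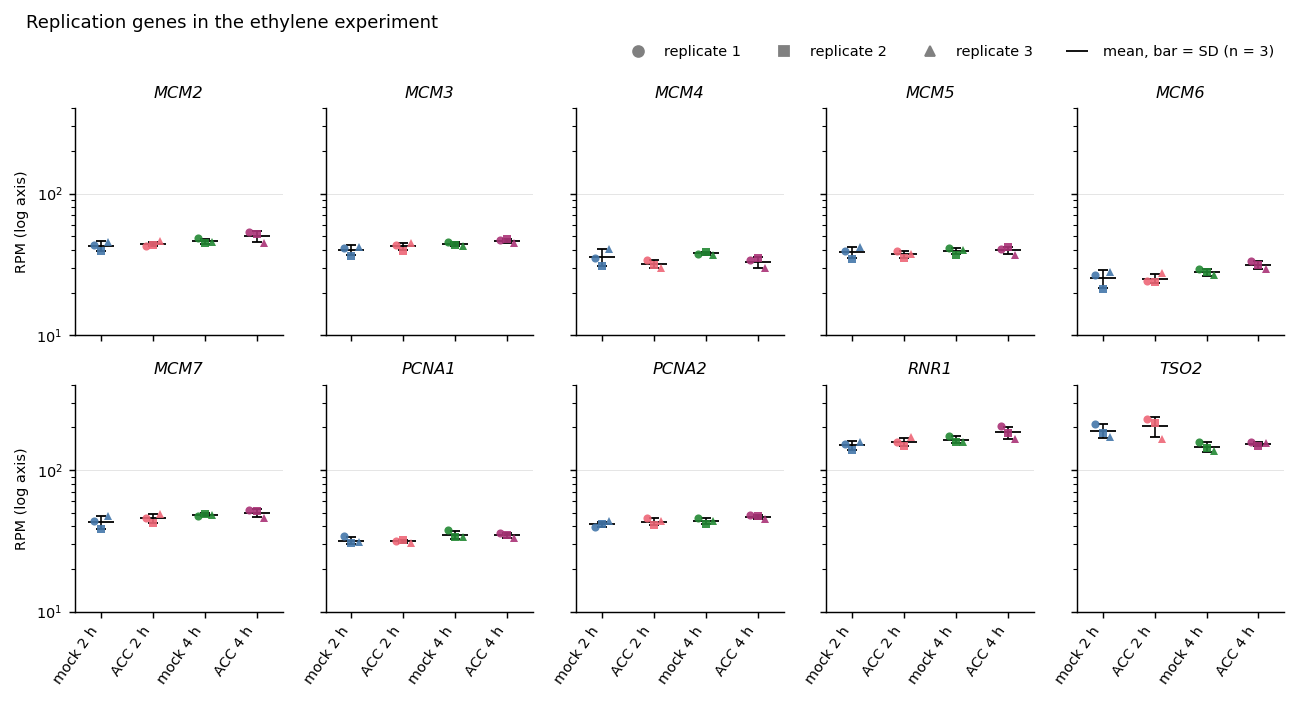
RPM on a log axis of the 10 genes in the 12 libraries of the ethylene experiment, by treatment and time, with the mean and SD of n = 3 libraries. ACC and mock libraries lie at like levels in each panel, and TSO2 is lower in the mock libraries at 4 h (136 to 159 RPM) than at 2 h (172 to 213 RPM).

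RNR1, the large subunit, had the highest change at 4 h. Its RPM was 174, 159 and 157 in mock and 204, 182 and 167 with ACC, ranges that overlap, and the change was 0.17 ± 0.08 (95% interval -0.00 to 0.34, limma adjusted p = 0.160). MCM4 had the lowest change at both times, -0.15 ± 0.09 at 2 h and -0.20 ± 0.09 at 4 h (limma adjusted p = 0.383 and 0.158). Its RPM at 4 h was 37.4, 38.9 and 36.9 in mock and 34.1, 34.9 and 29.6 with ACC, so the ACC libraries all lay below the mock libraries. MCM4 was the 1 gene of the 10 whose groups did not overlap at 4 h, as was the case downward for 16.6% of all genes. At 2 h the groups of all 10 overlapped, where 15.1% of all genes had groups apart upward and 8.88% downward.

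The log2 changes of the other members lay between -0.04 and 0.16 at these times. At 2 h the helicase genes MCM2, MCM3, MCM5, MCM6 and MCM7 were at 0.04 ± 0.08, 0.09 ± 0.07, -0.04 ± 0.08, 0.00 ± 0.10 and 0.09 ± 0.08. PCNA1 and PCNA2 were at -0.02 ± 0.07 and 0.06 ± 0.06, and RNR1 and TSO2 at 0.08 ± 0.08 and 0.09 ± 0.11. At 4 h the same helicase genes were at 0.10 ± 0.08, 0.08 ± 0.07, 0.01 ± 0.08, 0.16 ± 0.10 and 0.05 ± 0.08. PCNA1, PCNA2 and TSO2 were at -0.01 ± 0.07, 0.10 ± 0.06 and 0.08 ± 0.11. Of 48 other replication genes 0 passed at 2 h, and at 4 h 3 rose and 1 fell. Of all genes, 9.25% passed in either direction at 2 h and 19.4% at 4 h. Those that rose were the polymerase genes POLD2 at 0.31 ± 0.09 and POLA3 at 0.24 ± 0.07 and the nucleotide supply gene DUT1 at 0.26 ± 0.07. ORC1A of the origin recognition complex fell, at -0.38 ± 0.12. Its level was low, at 2.16 ± 0.184 RPM in mock and 1.45 ± 0.369 RPM with ACC. Of 13 mitotic genes 1 rose at 2 h, the cyclin gene CYCB2;3 at 0.38 ± 0.09, and 0 passed at 4 h.

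The ACC response was also compared between the times. The difference of the log2 changes, 4 h less 2 h, ran from -0.04 ± 0.13 for MCM4 to 0.16 ± 0.14 for MCM6, and 0 of the 10 passed, against 0.036% of all genes. It was 0.06 ± 0.11 for MCM2, -0.01 ± 0.10 for MCM3, 0.06 ± 0.11 for MCM5 and -0.04 ± 0.11 for MCM7. PCNA1 and PCNA2 were at 0.01 ± 0.09 and 0.04 ± 0.08, and RNR1 and TSO2 at 0.09 ± 0.11 and -0.02 ± 0.15. No gene of the 10 had an unadjusted p below 0.05 in it by limma, where 1555 of 19442 genes did. For the 10, edgeR and DESeq2 gave 0 calls.

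Between the mock groups, TSO2 differed from the other 9 genes in direction. TSO2 stood at 213, 183 and 172 RPM at 2 h and at 159, 142 and 136 RPM at 4 h, without overlap, while the other 9 had means 1.02 to 1.12 times as high at 4 h. Its log2 change was -0.38 ± 0.11, with an unadjusted p of 0.00399 and a limma adjusted p of 0.431, so it did not pass, and 0 of the 10 did, where 0.0566% of all genes passed. RNR1, the partner subunit, stood at 0.12 ± 0.08. The helicase genes MCM2 to MCM7 stood at 0.11 ± 0.08, 0.14 ± 0.07, 0.09 ± 0.09, 0.03 ± 0.08, 0.15 ± 0.10 and 0.17 ± 0.08, and PCNA1 and PCNA2 at 0.13 ± 0.07 and 0.07 ± 0.06. MCM3 was the other gene with groups apart, upward. Such groups were seen downward in 5.4% and upward in 9.53% of all genes. The fit, edgeR and DESeq2 all gave 0 calls. By limma 1 gene of the 10, TSO2, had an unadjusted p below 0.05, as did 1533 of 19442 genes.

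Glucose raised all 10 transcripts in Col-0 seedlings that had been grown without it. Means rose 5.46-fold for the clamp gene PCNA1, 4.15-fold for RNR1, 4.12-fold for MCM6 and 2.21-fold for TSO2, with the other 6 genes between 2.99-fold and 3.51-fold. All 10 passed the test, where 35.7% of 19336 genes rose and 20.6% fell (28.9% and 30.4% with median-of-ratios scaling), and all 10 had groups that did not overlap, as did 43.1% of all genes in that direction. The median log2 change of the 10 was 1.67, and that of all genes 0.14.

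The plot of levels in the glucose-TOR experiment shows these libraries gene by gene.

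**Figure D2:**
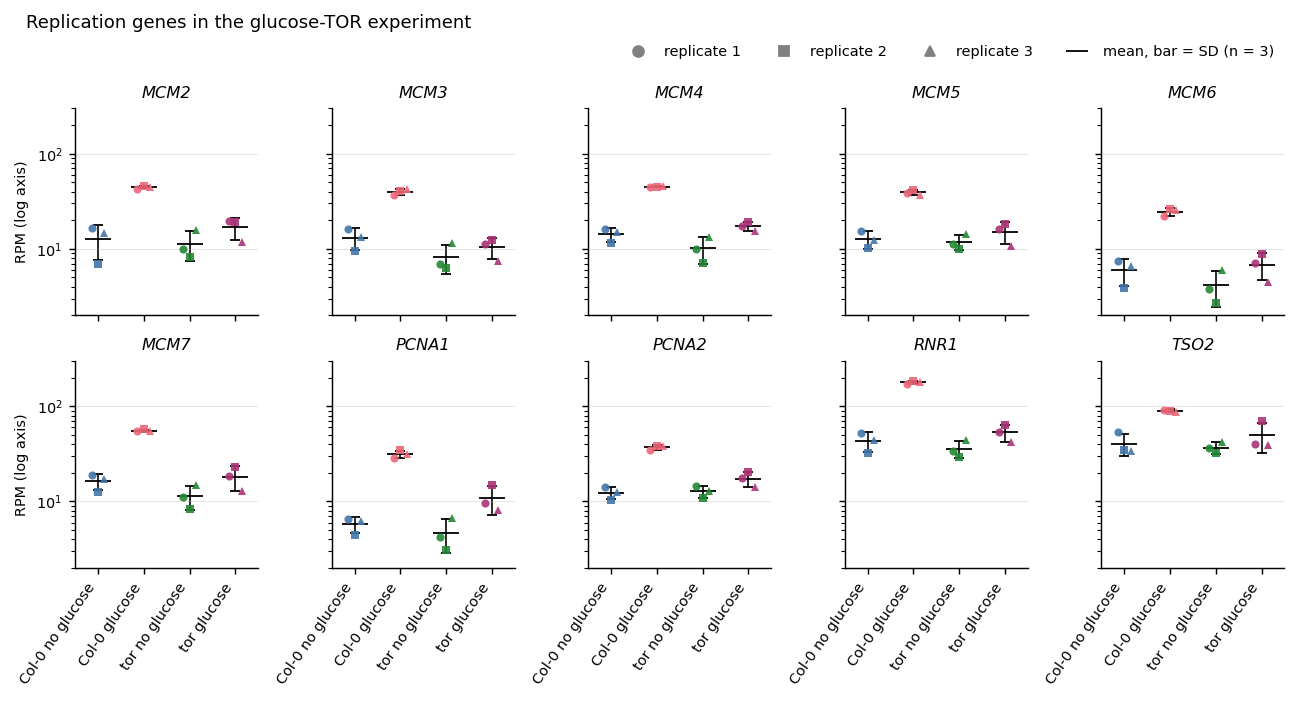
RPM on a log axis of the 10 genes in the 12 libraries of the glucose-TOR experiment, with the mean and SD of n = 3 libraries. In every panel the Col-0 libraries with glucose lie above all other libraries. In the libraries labelled tor the groups with and without glucose are apart for PCNA1 and MCM4 and overlap for the other 8 genes.

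PCNA1 had 6.59, 4.46 and 6.29 RPM without glucose and 29.0, 34.4 and 31.2 RPM with it, a log2 change of 2.27 ± 0.24 (limma adjusted p = 3.53e-06). RNR1 had 52.7, 32.4 and 44.6 RPM without glucose and 172, 185 and 181 RPM with it, a change of 2.06 ± 0.19 (adjusted p = 1.07e-06). TSO2 had 53.3, 34.7 and 34.0 RPM without and 92.7, 90.2 and 86.9 RPM with glucose, a change of 1.16 ± 0.21 (adjusted p = 3.90e-04). The glucose libraries of each of these genes lay close together, and the library without glucose numbered 1 was the highest of its group for all 10 genes. Per kb of transcript the order of TSO2 and RNR1 turned, from 24.1 ± 6.48 for TSO2 and 14.4 ± 3.40 for RNR1 without glucose to 53.1 ± 1.71 and 59.8 ± 2.17 with it.

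Of the helicase genes, MCM6 changed most, by 1.91 ± 0.27 on the log2 scale, from 7.42, 3.85 and 6.66 RPM to 21.9, 26.5 and 25.4 RPM. MCM4, which in yeast forms the catalytic side of the ring with MCM6 and MCM7, had 16.0, 11.6 and 15.0 RPM without glucose and 44.8, 44.8 and 45.3 RPM with it (1.61 ± 0.18). MCM2, MCM3, MCM5 and MCM7 changed by 1.81 ± 0.29, 1.57 ± 0.23, 1.58 ± 0.19 and 1.73 ± 0.22. PCNA2 changed by 1.51 ± 0.15, less than its paralogue PCNA1.

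Other replication genes rose with them in Col-0. From a list of 48 replication genes, 39 rose and 0 fell, with a median log2 change of 0.95. DUT1, which removes dUTP from the nucleotide pool, went from 11.9 ± 4.68 to 45.8 ± 1.65 RPM, and POLA2, a subunit of DNA polymerase alpha, from 7.00 ± 1.24 to 26.1 ± 2.19 RPM. MCM10, a helicase activation factor, went from 1.74 ± 1.19 to 7.46 ± 0.529 RPM, and ORC2, of the origin recognition complex, from 1.33 ± 0.797 to 5.86 ± 1.08 RPM. Of 12 mitotic genes tested, 6 rose and 0 fell, with a median of 0.50, among them the kinase gene CDKB1;1 from 2.63 ± 0.644 to 6.18 ± 0.822 RPM. Marker levels moved too, with a summed RPM of 3 measured shoot meristem genes of 322 to 380 without glucose and 581 to 616 with it, and of 4 measured root tip genes of 94.7 to 101 and 125 to 127. WUS and CLV3, defining shoot meristem genes, have no value in the glucose experiments, and the part of cell numbers in the result was not tested, since in whole seedlings more dividing cells and more RNA per cell cannot be told apart.

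In the libraries labelled tor, the same glucose treatment was followed by a smaller rise. PCNA1 went from 4.24, 3.12 and 6.66 RPM to 9.54, 14.9 and 8.12 RPM, a log2 change of 1.07 ± 0.24 (limma adjusted p = 0.00373). MCM4 went from 9.99, 7.04 and 13.3 RPM to 17.2, 19.3 and 15.5 RPM, a change of 0.76 ± 0.18 (adjusted p = 0.00558). These were the 2 genes whose groups did not overlap, as for 25.3% of all genes in that direction. MCM7, RNR1 and PCNA2 also passed, at 0.62 ± 0.22, 0.55 ± 0.19 and 0.41 ± 0.15, which makes 5 of 10, where 19.9% of all genes rose and 14.8% fell. Of 48 other replication genes 4 rose and 0 fell, with a median of 0.23, namely DUT1 (0.80 ± 0.27), the thymidine kinase gene TK1b (0.74 ± 0.09), POLA2 (0.49 ± 0.16) and the clamp loader gene RFC2 (0.48 ± 0.14). Of 12 mitotic genes 1 rose, CYCB1;3 at 0.52 ± 0.17. Shoot meristem markers summed to 417 to 452 RPM without and 549 to 705 RPM with glucose in these libraries and root tip markers to 111 to 123 and 115 to 126 RPM, and their part in the values was not tested.

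The other 5 did not pass in the libraries labelled tor. Their changes were 0.61 ± 0.27 for MCM6, 0.55 ± 0.29 for MCM2, 0.38 ± 0.21 for TSO2, 0.32 ± 0.23 for MCM3 and 0.32 ± 0.19 for MCM5, with limma adjusted p from 0.0967 to 0.318. RNR1 had 33.8, 29.7 and 44.1 RPM without glucose and 53.6, 64.1 and 41.9 RPM with it, so its groups overlapped through the libraries numbered 3. Among the libraries labelled tor, number 3 was the highest of its group for 9 of 10 genes without glucose and the lowest for all 10 with it. With glucose, that library held 13.3 M reads and 3.71% of its RPM on chloroplast genes. Replicate 2 with glucose, the highest of its group for 9 of 10 genes, held 16.5 M reads and 3.10% on chloroplast genes. Replicate 1 with glucose held 18.9 M reads and 0.490%. The count of 5 became 2 without tor no glucose replicate 2, tor glucose replicate 1 or tor glucose replicate 2, and 3 without tor no glucose replicate 1. It was also 2 in a fit to these 2 groups alone, where PCNA1 and MCM4 still passed, with adjusted p of 0.0207 and 0.0289.

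With glucose present, all 10 transcripts were lower in the libraries labelled tor than in Col-0. The means were 0.261 times the Col-0 level for MCM3, 0.276 for MCM6, 0.296 for RNR1 and 0.553 for TSO2, with the other 6 between 0.328 and 0.470. MCM3 had 36.6, 40.4 and 42.1 RPM in Col-0 and 11.1, 12.4 and 7.52 RPM in tor, a log2 change of -1.87 ± 0.23 (limma adjusted p = 1.44e-05). TSO2 had the smallest change, -0.89 ± 0.21 (adjusted p = 0.00233), with 40.5, 69.7 and 39.0 RPM in tor, all below the lowest Col-0 library. The median gene was 0.14 higher in tor on this scale. All 10 passed, where 24.1% of all genes were lower and 37.3% higher (32.3% and 31.1% with median-of-ratios scaling), and the groups of all 10 did not overlap, as for 25.8% of all genes in that direction.

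The remaining members fell in the same comparison as follows. MCM6 changed by -1.75 ± 0.27, MCM7 by -1.59 ± 0.22, MCM2 by -1.39 ± 0.29, MCM5 by -1.35 ± 0.19 and MCM4 by -1.33 ± 0.18. RNR1 changed by -1.76 ± 0.19, PCNA1 by -1.50 ± 0.24 and PCNA2 by -1.06 ± 0.15. Other replication genes went the same way, with 35 of 48 lower and 1 higher (median -0.86), among them RPA70B, a subunit of the single-strand binding protein, at 15.9 ± 2.60 RPM in Col-0 and 4.02 ± 0.887 RPM in tor. CDT1A, which loads the MCM ring, had 24.2 ± 1.52 and 7.55 ± 2.5 RPM, and MCM10 and DUT1 changed by -1.61 ± 0.33 and -1.63 ± 0.27. As deposited 4 of 12 mitotic genes were lower and 0 higher, where 24.1% of all genes were lower. The 4 were B1-type cyclin genes, with CYCB1;1 at 4.21 ± 0.500 and 2.47 ± 0.569 RPM. With median-of-ratios scaling 7 of 12 were lower and 0 higher, where 32.3% of all genes were lower. With glucose, green shoot markers summed to 20408 to 22786 RPM in Col-0 and 6451 to 13619 RPM in tor, and seed markers to 0.548 to 17.9 and 3.08 to 120 RPM, and their part in these levels was not tested.

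Without glucose the genotypes were closer. MCM3 had 16.2, 9.43 and 13.4 RPM in Col-0 and 6.98, 6.23 and 11.4 RPM in tor, and MCM4 was also lower, so 2 of 10 fell, at -0.62 ± 0.23 and -0.48 ± 0.18 (limma adjusted p = 0.0359 and 0.0365), where 15% of all genes were lower and 40.3% higher. The groups of all 10 genes overlapped, where 16.8% of all genes had groups apart downward and 46.7% upward. The others ran from -0.49 ± 0.22 for MCM7 to 0.04 ± 0.15 for PCNA2, with MCM6 at -0.45 ± 0.27, PCNA1 at -0.29 ± 0.24, RNR1 at -0.25 ± 0.19, MCM2 at -0.12 ± 0.29, TSO2 at -0.12 ± 0.21 and MCM5 at -0.08 ± 0.19. The median gene was 0.24 higher in tor on this scale, and with median-of-ratios scaling 5 of 10 were lower (MCM3, MCM4, MCM6, MCM7 and RNR1), against 27.2% of all genes lower and 24.9% higher. PCNA2 then turned to -0.22. The count of 2 became 0 without Col-0 no glucose replicate 1 or 3 or tor no glucose replicate 1 or 2, and 4 without Col-0 no glucose replicate 2 or tor no glucose replicate 3. Green shoot markers differed as well, with a summed RPM of 3 genes of 21342 to 27101 in Col-0 and 9293 to 10665 in tor, and a sum of 3 seed genes of 0.687 to 2.60 and 1.76 to 105, and their part in these levels was not tested.

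Of the other 48 replication genes, 9 were higher and 8 lower in the libraries labelled tor without glucose. RPA70B changed by -0.94 ± 0.26, PSF1 of the helicase activation complex by -0.85 ± 0.20 and CDT1A by -0.67 ± 0.26. TK1a, a thymidine kinase of the nucleotide salvage route, changed by 0.84 ± 0.12, from 9.24 ± 0.609 to 17.4 ± 1.61 RPM. That split was 5 higher and 17 lower with median-of-ratios scaling. Of 12 mitotic genes 1, CDKB1;1, was higher, at 0.57 ± 0.23.

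The difference between the genotypes in their response to glucose was tested directly, as the log2 change in the libraries labelled tor less that in Col-0. It was negative for all 10 genes and passed for 9, where 11.2% of all genes had a lower response and 6.21% a higher one (10.2% and 10.6% with median-of-ratios scaling), and the median was -1.23 for the 10 and -0.10 for all genes. RNR1 had the largest difference, -1.50 ± 0.26 (limma adjusted p = 0.00262). PCNA2 and MCM5 followed by p, at -1.10 ± 0.21 and -1.26 ± 0.27 (adjusted p = 0.00420 and 0.00761). The other helicase genes were at -1.30 ± 0.38 for MCM6, -1.27 ± 0.40 for MCM2, -1.25 ± 0.32 for MCM3, -1.11 ± 0.30 for MCM7 and -0.85 ± 0.25 for MCM4. PCNA1 was at -1.21 ± 0.33, and TSO2 at -0.78 ± 0.29, where it did not pass (adjusted p = 0.0897).

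The count of 9 rested on single libraries in part. It became 4 without Col-0 no glucose replicate 2, Col-0 glucose replicate 2 or 3, tor no glucose replicate 3 or tor glucose replicate 3, and 5 without Col-0 glucose replicate 1. By edgeR it was 5 and by DESeq2 9, where 19.7% and 21.5% of all genes passed in either direction. Among the other replication genes 20 of 48 had a lower response in the libraries labelled tor and 0 a higher one, POLA2 (-1.28 ± 0.22), ORC1B (-1.21 ± 0.32) and ETG1 (-1.18 ± 0.31) among them, and 0 of 12 mitotic genes passed.

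In the Ler background all 10 transcripts also rose with glucose, in the wild type and in gin2. In Ler the means rose 2.21-fold for MCM7 to 3.0-fold for MCM2, and in gin2 2.69-fold for MCM7 to 4.77-fold for PCNA1. All 10 passed in Ler, where 17.4% of 17352 genes rose and 11.3% fell (25.3% and 25.4% with median-of-ratios scaling). All 10 passed in gin2, where 18.7% rose and 8.73% fell (22.7% and 23.7%), and the groups of no gene overlapped in either. Groups that did not overlap were seen in that direction in 19.2% of all genes in Ler and 38.4% in gin2. The medians of the 10 were 1.33 and 1.66, and those of all genes 0.10 and 0.13.

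The Ler libraries numbered 3 stand apart, and the plot of levels in the glucose-HXK1 experiment marks them as triangles. In Ler, 26.8% to 54.3% of the RPM without glucose and 28.6% to 54% with it lay on genes for which the table gives no value, with both libraries numbered 3 at the top, against 13% to 18% in gin2. Each of those libraries had the lowest RPM of its group for 9 of the 10 genes. Without both, all 10 genes still passed in Ler.

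**Figure D3:**
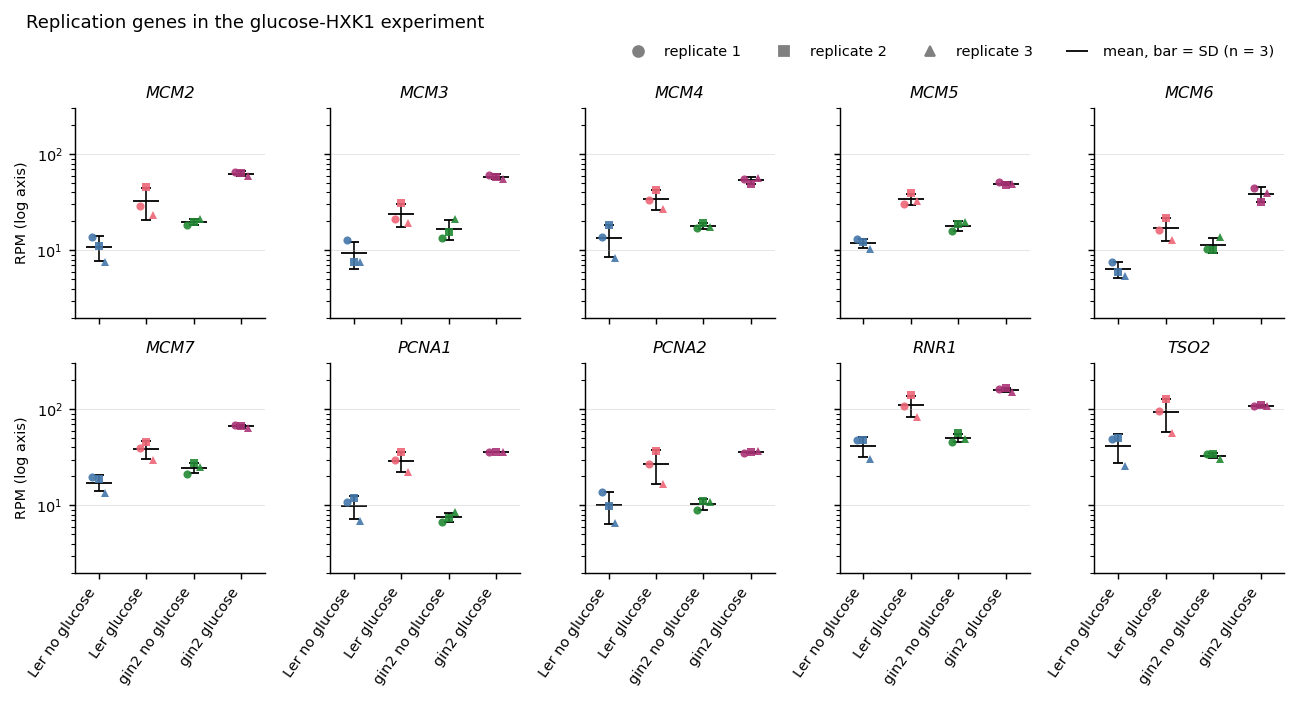
RPM on a log axis of the 10 genes in the 12 libraries of the glucose-HXK1 experiment, with the mean and SD of n = 3 libraries. In every panel all libraries with glucose lie above those without it in the same genotype.

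PCNA1 had 10.8, 11.8 and 6.80 RPM in Ler without glucose and 29.7, 35.9 and 22.0 RPM with it, a log2 change of 1.49 ± 0.23 (limma adjusted p = 1.20e-05). In gin2 it had 6.76, 7.33 and 8.46 RPM without and 36.3, 35.7 and 35.6 RPM with glucose, a change of 2.12 ± 0.23 (adjusted p = 5.33e-08). The gin2 libraries without glucose lay below replicates 1 and 2 of Ler, and those with glucose lay close together near the highest Ler library. TSO2 had 48.8, 50.8 and 25.7 RPM in Ler without glucose and 95.3, 128 and 56.6 RPM with it (1.13 ± 0.26), and in gin2 34.0, 34.0 and 30.5 RPM and then 107, 111 and 108 RPM (1.70 ± 0.26). RNR1 changed by 1.38 ± 0.23 in Ler and 1.65 ± 0.23 in gin2, and PCNA2 by 1.32 ± 0.26 and 1.70 ± 0.26. The 6 helicase genes changed by 1.1 ± 0.22 (MCM7) to 1.48 ± 0.24 (MCM2) in Ler and by 1.40 ± 0.22 (MCM7) to 1.76 ± 0.24 (MCM3) in gin2.

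By limma no difference between Ler and gin2 in the response to glucose was detected, while both count tests called 1 gene, PCNA1. The log2 change in gin2 less that in Ler ran from -0.04 ± 0.29 for MCM5 (95% interval -0.64 to 0.56) to 0.63 ± 0.32 for PCNA1 (-0.04 to 1.29), and was 0.27 ± 0.33 for RNR1, 0.57 ± 0.37 for TSO2 and 0.39 ± 0.36 for PCNA2. MCM2, MCM3, MCM4, MCM6 and MCM7 were at 0.15 ± 0.34, 0.48 ± 0.34, 0.19 ± 0.34, 0.40 ± 0.33 and 0.30 ± 0.31. By limma 0 of the 10 passed, where 0.294% of all genes did. Of the 10, 0 had an unadjusted p below 0.05, where 587 of 17352 genes did. Of 47 other replication genes 0 passed. On recovered reads the difference for PCNA1 was 0.67 by edgeR (adjusted p = 0.0348) and 0.66 ± 0.19 by DESeq2 (adjusted p = 0.0267), a larger response in gin2, where 2.11% and 2.82% of all genes passed in either direction. With a library left out, the limma value for PCNA1 ran from 0.45 to 0.85 and did not pass.

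The plot of glucose responses sets the 4 genotypes side by side.

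**Figure D4:**
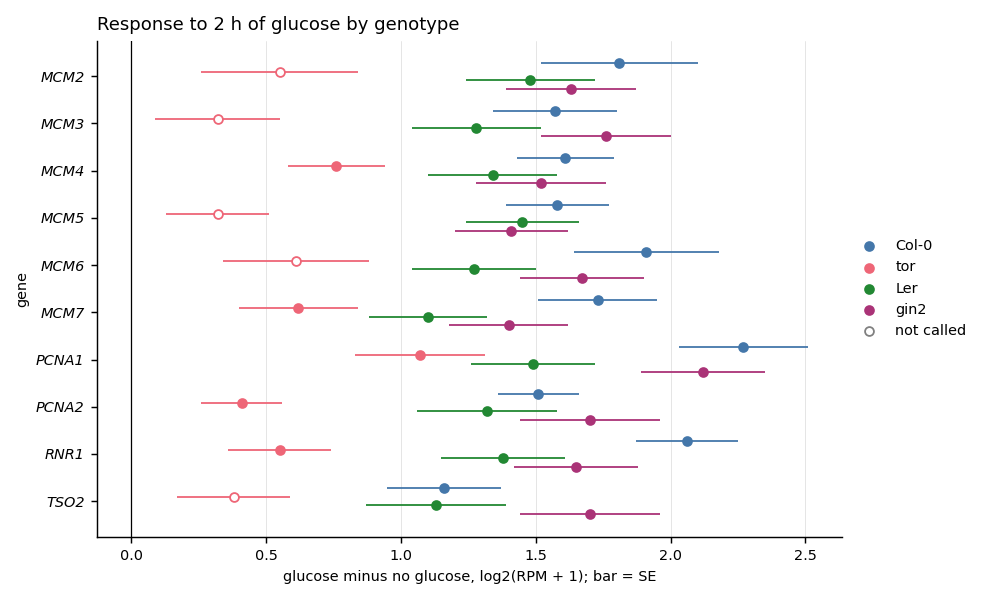
Log2 change of RPM + 1 after 2 h of glucose for the 10 genes in Col-0, in the libraries labelled tor, in Ler and in gin2, with SE bars from the limma fits and open points where the test was not passed. The points of tor lie between 0.32 and 1.07, left of those of the other genotypes for every gene.

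Other replication genes rose in both genotypes of the Ler background, 25 of 47 in Ler and 36 of 47 in gin2, and as deposited 0 fell. Median-of-ratios scaling gave 33 higher and 1 lower in Ler and 37 higher and 0 lower in gin2. RPM rescaled to nuclear genes gave 41 higher and 1 lower in Ler and 42 higher and 0 lower in gin2. With that rescaling, 6109 of 17352 genes were higher and 3081 lower in Ler, and 5520 higher and 2794 lower in gin2. CDT1A went from 3.34 ± 1.60 to 11.4 ± 4.28 RPM in Ler and from 6.89 ± 1.07 to 24.9 ± 2.45 RPM in gin2, and DUT1 from 17.7 ± 6.25 to 50.2 ± 8.84 and from 11 ± 1.02 to 41.7 ± 2.49 RPM. Of 11 mitotic genes 1, CDKB1;1, rose in each, and the medians of that list were -0.03 and -0.07. Shoot meristem markers summed to 146 to 324 RPM without and 155 to 295 RPM with glucose in Ler, and to 237 to 262 and 243 to 268 in gin2. Root tip markers summed to 45.5 to 70.4 and 46.2 to 70 RPM in Ler and to 63.4 to 76.0 and 81.3 to 84.9 in gin2. Seed markers ran from 7.84 to 149 RPM without and 72.4 to 186 with glucose in Ler and from 1.23 to 6.51 and 5.08 to 16.8 in gin2, and their part in the values was not tested.

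Between gin2 and Ler the answer depended on the scaling. As deposited, the median of all genes was 0.55 higher in gin2 without glucose and 0.62 higher with it, so changes are given relative to that as well. Without glucose 4 of 10 were higher, where 49.9% of all genes were and 1.66% were lower, namely MCM2 at 0.83 ± 0.24, MCM3 at 0.79 ± 0.24, MCM6 at 0.75 ± 0.23 and MCM5 at 0.57 ± 0.21. With median-of-ratios scaling 0 were higher and 4 were lower, against 14.9% and 17.4% of all genes. Those 4 were TSO2 at -0.89 ± 0.14, PCNA1 at -0.88 ± 0.11, PCNA2 at -0.49 ± 0.13 and RNR1 at -0.32 ± 0.10, which as deposited stood at -0.28, -0.31, 0.08 and 0.29. MCM4 and MCM7 did not pass on either scale, at 0.45 ± 0.24 and 0.50 ± 0.22 as deposited. By edgeR and by DESeq2 the same 4 were lower and 0 higher, where 31.1% and 31.4% of all genes passed in either direction. The 4 higher as deposited became 1, MCM2, without gin2 no glucose replicate 3. Without both Ler libraries numbered 3, MCM2, MCM3, MCM5 and MCM6 were higher and PCNA1 and TSO2 lower, at -0.53 and -0.59 (limma adjusted p = 0.00924 and 0.00191).

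With glucose, 7 of 10 were higher in gin2 as deposited, where 57.1% of all genes were and 1.61% were lower, from MCM3 at 1.28 ± 0.24 and MCM6 at 1.16 ± 0.23 down to MCM5 at 0.53 ± 0.21, with MCM2 at 0.97 ± 0.24, MCM7 at 0.80 ± 0.22, MCM4 at 0.64 ± 0.24 and RNR1 at 0.56 ± 0.23. PCNA2, PCNA1 and TSO2 did not pass, at 0.46 ± 0.26, 0.32 ± 0.23 and 0.30 ± 0.26. With median-of-ratios scaling 3 were higher, MCM3 at 0.63 ± 0.15, MCM6 at 0.52 ± 0.13 and MCM2 at 0.32 ± 0.10, where 17.1% of all genes were. On that scale 1 was lower, PCNA1 at -0.33 ± 0.11, where 16.8% were. MCM4, MCM5 and RNR1 then stood at -0.01, -0.12 and -0.10, so their direction turned. By edgeR the same 3 were higher and PCNA1 was lower, and by DESeq2 TSO2 was lower too, at -0.38 (adjusted p = 0.0330), where 35.1% and 34.6% of all genes passed in either direction. The count of 7 became 4 without Ler glucose replicate 1 or 3 or gin2 glucose replicate 1 or 3, and was 7 without both Ler libraries numbered 3.

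MCM3 shows the per-library values behind this. It had 21.3, 31.2 and 19.2 RPM in Ler with glucose and 61.4, 58.6 and 54.8 RPM in gin2, so that the lowest gin2 library lay above the highest Ler library. Groups of 7 of the 10 genes did not overlap in that way with glucose, as for 66% of all genes upward, and of 5 without it, as for 58%. Of 11 mitotic genes 1 was higher without glucose and 2 with it. Of 47 other replication genes, 21 were higher and 1 lower without glucose and 37 higher with it as deposited, and with median-of-ratios scaling 6 were higher and 8 lower, and 5 higher and 5 lower. EMB2775, which RefSeq names replication factor C 3, a subunit of the clamp loader, had 17.2 ± 4.36 RPM in Ler and 38.4 ± 1.85 RPM in gin2 with glucose.

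Ratios within a library do not depend on its scaling, and 3 of them were compared after the values had been seen. The mean log2 RPM of the 6 helicase genes less that of the 2 clamp genes was 0.16 in Ler and 1.0 in gin2 without glucose, and 0.07 and 0.59 with it, with no overlap between genotypes. The groups with and without glucose were also apart in gin2 and in Col-0, where the ratio was 0.47 without and 0.24 with it. With glucose, tor (-0.04) and Col-0 were apart too. In the other comparisons of this ratio the groups overlapped. Each difference without overlap had an exact permutation p of 0.100, two-sided, the smallest that 3 against 3 libraries allow. Its adjusted p was 0.236 over 33 ratio comparisons. None of the 33 could therefore pass, and in 14 the groups did not overlap.

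The ribonucleotide reductase genes TSO2 and RNR1 shifted against each other in some of these comparisons. RNR2A, another small subunit gene, is among the 48 other replication genes and is not part of this ratio. The ratio of TSO2 to RNR1 in RPM was 1.01, 1.07 and 0.762 in Col-0 without glucose and 0.538, 0.487 and 0.481 with it. In the libraries labelled tor it was 1.07, 1.08 and 0.954 without and 0.756, 1.09 and 0.932 with glucose, so only the Col-0 groups were apart. Mock libraries had 1.39, 1.33 and 1.08 at 2 h and 0.913, 0.890 and 0.865 at 4 h, again apart. In gin2 the ratio was 0.737, 0.603 and 0.623 without and 0.654, 0.675 and 0.717 with glucose, ranges that overlap. In Ler it was 1.03, 1.07 and 0.847 without and 0.873, 0.922 and 0.684 with glucose, which overlap too. Without glucose all gin2 libraries lay below those of Ler.

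The clamp genes also shifted with glucose. The mean log2 ratio of PCNA2 to PCNA1 went from 1.11 to 0.23 in Col-0, from 1.51 to 0.72 in the libraries labelled tor and from 0.46 to -0.00 in gin2, each without overlap. In Ler it went from 0.02 to -0.16, with overlap (exact permutation p = 0.500). PCNA1 thus made up a larger share of PCNA transcripts with glucose in the 3 genotypes without overlap. Each of the differences without overlap again had an exact p of 0.100.

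**Figure D5:**
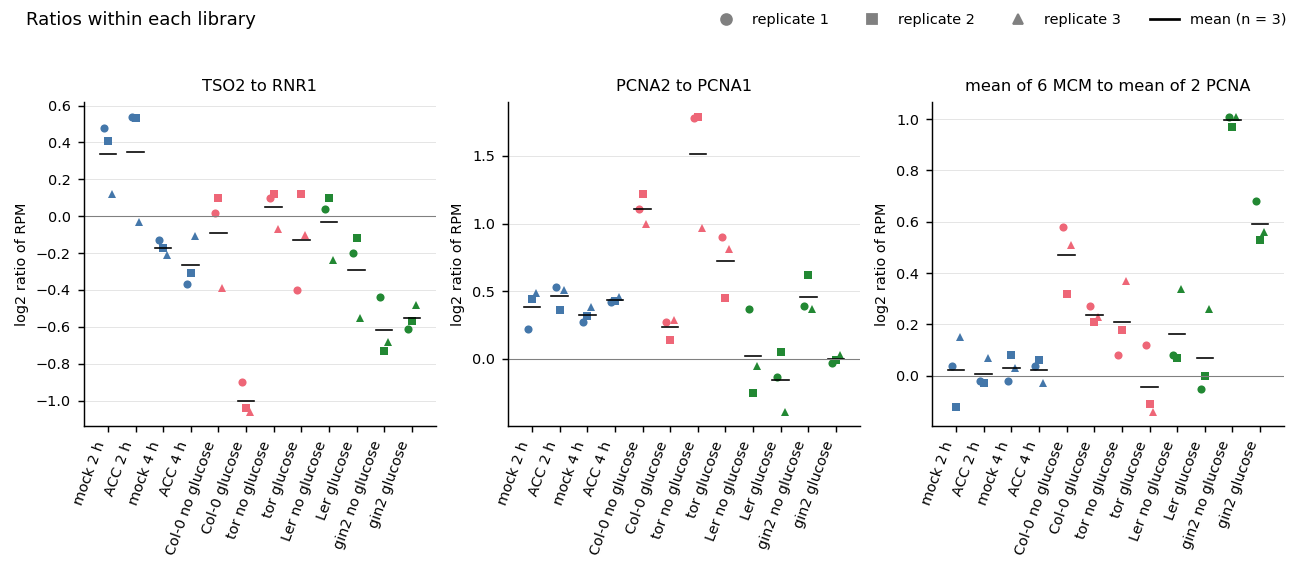
Log2 ratio of RPM within each of the 36 libraries for TSO2 to RNR1, PCNA2 to PCNA1, and the mean of 6 MCM genes to the mean of 2 PCNA genes, by group, with a line at the mean of n = 3 libraries. The TSO2 to RNR1 ratio is lowest in Col-0 with glucose (mean -1.0), and the helicase to clamp ratio is highest in gin2 without glucose (mean 1.0).

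Over the 24 glucose libraries, with log2 levels centred within each experiment, the 10 genes varied closely together. The correlation of a gene with the mean of the other 9 ran from 0.913 for TSO2 to 0.991 for RNR1, and over the 45 pairs from 0.825 for MCM3 and TSO2 to 0.985 for MCM6 and MCM7, with a median of 0.953. These are descriptions, since the libraries of a group share genotype and treatment. The levels were as deposited, and median-of-ratios factors of the glucose-HXK1 libraries ran from 0.584 to 1.35. The part of that scale in the correlations was not tested. Of 17113 genes measured in both glucose experiments, those most like the mean profile of the 10 were ETG1 (0.989), which encodes an MCM-binding protein, POLA2 (0.987), POLA3 (0.985), ICU2 (0.984), which encodes the catalytic subunit of DNA polymerase alpha, and CMT3 (0.983), a DNA methyltransferase gene.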

How the data were processed

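Messenger RNA of 36 seedling libraries was sequenced, and the authors deposited 1 table of RPM values per gene. The submitters' processing notes name TopHat and HTSeq; which versions and genome build were used, whether counting was strand-specific and how multi-mapping reads were counted is not given in the sources used here. In the ethylene, glucose-TOR and Ler columns all values were whole multiples of 1 read within 0.02 reads, and in the gin2 columns so were those of the 17367 genes also listed for Ler, of 18402 listed. These recovered reads served edgeR 4.0.16 and DESeq2 1.42.0 as alternatives.

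The deposited RPM values were taken as log2(RPM + 1), which understates changes of low genes. A gene entered an experiment's fit if it reached 1 RPM in 3 or more libraries, and genes without a value in any of its libraries were left out. Each experiment (12 libraries) was fitted in R 4.3.3 by limma 3.58.1 with its trend option, two-sided, with Benjamini-Hochberg adjustment over all genes and calls below 0.05. The fit was run on simulated data for ACC at 2 h, glucose in Col-0 and glucose in Ler only. The simulated libraries differed in total reads but not in scale as the Ler libraries do. No difference of responses was simulated, and the outcome is not given here.

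The 10 genes, the lists and the tests were chosen with earlier results of these data known. All 10 genes are described in every comparison. Of the list genes, up to 4 called genes with the largest changes were eligible, and the 5 genes most like the 10 are named. Of 48 other replication genes, 37 matched the RefSeq annotation by symbol and 11 by code alone. Residual correlations across genes of same-numbered libraries were all above 0.1 only for mock 4 h against mock 2 h, at 0.595, 0.411 and 0.382. That pairing comes from the data, not the labels. For glucose in Ler they were 0.129, 0.0136 and 0.635 for the libraries numbered 1, 2 and 3. Alternatives were other scalings, filters, pseudocounts, fits and left-out libraries. Comparisons within an experiment share control libraries.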

Additional observations from a re-analysis of the deposited data

Results flagged for a closer look

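The response to glucose differed between the libraries labelled tor and Col-0 by the interaction term of the limma fit for 9 of the 10 genes. Of all genes, 11.2% had a lower response in tor by that fit and 6.21% a higher one. The count of 9 was 5 with edgeR, 9 with DESeq2 and 4 to 10 with a library left out. The log2 change in tor less that in Col-0 was -1.50 for RNR1, -1.30 for MCM6, -1.27 for MCM2, -1.26 for MCM5, -1.25 for MCM3, -1.21 for PCNA1, -1.11 for MCM7, -1.10 for PCNA2 and -0.85 for MCM4. TSO2, at -0.78, did not pass (adjusted p = 0.0897). TOR itself had 223, 224 and 224 RPM in the libraries labelled tor and 114, 110 and 120 RPM in Col-0 without glucose, and the part of that in the difference was not tested.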

How the results depend on the processing

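The counts of genes that passed were 10 of 10 under every alternative run for glucose in Col-0, in Ler and in gin2 and for tor against Col-0 with glucose. They were 0 under every alternative run for both ACC comparisons, their difference and the mock groups. For the difference between gin2 and Ler in the glucose response the count of 0 was 1 (PCNA1) with edgeR and DESeq2 and 0 with a library left out and under the other alternatives run. For glucose in tor the count of 5 was 2 in a fit to the groups compared and 2 to 7 with a library left out. For tor against Col-0 without glucose the count of 2 was 1 in a fit to the groups compared, 5 with median-of-ratios scaling, edgeR or DESeq2, and 0 to 4 with a library left out. For the difference of responses between tor and Col-0 the count of 9 was 5 with edgeR and 4 to 10 with a library left out. These counts take both directions together. For gin2 against Ler without glucose the 4, all higher, ran from 1 to 5 with a library left out. Without both Ler libraries numbered 3 there were 6, of which 4 were higher and 2 lower. There were 4, all lower, with median-of-ratios scaling, edgeR or DESeq2. There were 3 with RPM rescaled to nuclear genes listed in all 12 libraries, MCM2 higher and PCNA1 and TSO2 lower. With that rescaling, 4506 of 17352 genes were higher and 1864 lower. With glucose the 7, all higher, were 4 with median-of-ratios scaling or edgeR (3 higher, PCNA1 lower). They were 4, all higher, with RPM rescaled to nuclear genes, where 4740 of 17352 genes were higher and 1969 lower. They were 5 with DESeq2 (3 higher, 2 lower) and 4 to 8 with a library left out. With a replicate block the counts were 2 for glucose in tor and 1 for tor against Col-0 without glucose. They were 7 for the difference of those responses and 5 for gin2 against Ler without glucose. The block changed no call for the mock groups. Outside them the labels tie same-numbered samples by the number alone. The Ler libraries numbered 3, with and without glucose, had a residual correlation across genes of 0.635.

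Over all 10 genes and comparisons, 2150 alternative values were computed, of which 105 changed sign, 11 of them for genes that had passed. With median-of-ratios scaling, edgeR and DESeq2 in turn, MCM6 was at -0.026, -0.034 and -0.035 for ACC at 2 h and MCM5 at -0.024, -0.019 and -0.026 at 4 h, and PCNA1 at -0.001 with that scaling and -0.005 with DESeq2 in the difference of ACC responses. With median-of-ratios scaling PCNA2 turned to -0.220 in tor against Col-0 without glucose, and to -0.252 by edgeR and -0.233 by DESeq2. For gin2 against Ler without glucose that scaling gave -0.138 for MCM4, -0.023 for MCM5, -0.096 for MCM7, -0.493 for PCNA2 and -0.324 for RNR1, and with glucose -0.014 for MCM4, -0.122 for MCM5, -0.329 for PCNA1, -0.180 for PCNA2, -0.099 for RNR1 and -0.363 for TSO2. By edgeR and DESeq2 in turn, MCM4 was at -0.167 and -0.169, MCM5 at -0.028 and -0.029, MCM7 at -0.094 and -0.094, PCNA2 at -0.556 and -0.558 and RNR1 at -0.325 and -0.324 without glucose. With glucose they gave MCM5 -0.117 and -0.136, PCNA1 -0.321 and -0.339, PCNA2 -0.183 and -0.201, RNR1 -0.080 and -0.099 and TSO2 -0.364 and -0.382, and MCM4 0.006 and -0.013. With RPM rescaled to nuclear genes PCNA2 and RNR1 were at -0.357 and -0.170 without glucose, and PCNA1, PCNA2 and TSO2 at -0.195, -0.045 and -0.225 with it. Without both Ler libraries numbered 3, PCNA2 was at -0.176 without glucose and TSO2 at -0.023 with it, and the difference of glucose responses was 0.020 for MCM5. With a library left out, values that changed sign ran, for ACC at 2 h, from -0.019 to 0.091 for MCM2, -0.118 to 0.016 for MCM5, -0.114 to 0.083 for MCM6 and -0.046 to 0.028 for PCNA1. For ACC at 4 h they ran from -0.032 to 0.064 for MCM5 and -0.042 to 0.042 for PCNA1, and between the mock groups from -0.004 to 0.193 for MCM4 and -0.040 to 0.094 for MCM5. In the difference of ACC responses they ran from -0.063 to 0.053 for MCM3, -0.145 to 0.051 for MCM4, -0.003 to 0.131 for MCM5, -0.110 to 0.037 for MCM7, -0.041 to 0.061 for PCNA1, -0.003 to 0.078 for PCNA2 and -0.152 to 0.078 for TSO2. In tor against Col-0 without glucose they ran from -0.470 to 0.093 for MCM2, -0.222 to 0.055 for MCM5, -0.068 to 0.152 for PCNA2 and -0.228 to 0.089 for TSO2. In gin2 against Ler they ran from -0.176 to 0.313 for PCNA2 without glucose and -0.023 to 0.559 for TSO2 with it, and from -0.062 to 0.413 for MCM2, -0.049 to 0.465 for MCM4 and -0.126 to 0.065 for MCM5 in the difference of glucose responses. The causes were not tested.

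The 3 ratios and their alternatives were chosen after seeing the data; of 198 values with a library left out, 0 of those whose groups did not overlap changed sign. Libraries of Ler and gin2 held 5.64 to 13.6 M reads, with up to 54.3% of the RPM on genes without a value. Intervals are for a difference of means, with the variance taken from the limma fit over the 12 libraries of an experiment. They are not the range of the libraries in a group, and each group held only 3.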
